A study of Mus musculus with 6 samples.

Results

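Heat shock proteins and chaperonins are described here in primary cultures of mouse testicular peritubular myoid cells, the smooth-muscle-like cells that wrap the seminiferous tubules. The 32 genes were taken by name from a gene table of 19285 genes with values: 9 inducible cytosolic chaperones and partners, 3 small heat shock proteins, 3 constitutive cytosolic chaperones, 4 cochaperones with the transcription factor Hsf1, 4 mitochondrial chaperones and the 8 subunits of the cytosolic chaperonin TRiC. Cells came from C57BL/6J mice and were grown in serum. Total RNA was sequenced as 3 untreated libraries and 3 libraries made after 5 min with endothelin-1 (ET-1, 50 nM), a peptide that contracts smooth muscle. Separate animals or cultures are not named in the labels for these libraries, and each p-value therefore reflects library-to-library spread, possibly of technical origin.

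Levels are FPKM, that is, fragments counted per transcript length and library depth, so they can be compared between genes. A change is a difference of log2(FPKM + 1), ET-1 minus untreated, fitted with limma, and a gene was called when its Benjamini-Hochberg adjusted p over all 11664 genes tested was under 0.05. All 32 genes passed the filter on low values. The smooth muscle markers Acta2, Tagln, Myh11, Cnn1, Des and Actg2 summed to 3088 to 3561 FPKM in the untreated libraries and 3533 to 5026 FPKM after ET-1. Untreated libraries 1 and 3 were the closest pair of all, with a Pearson correlation of 0.996 across genes, against 0.973 and 0.983 of each with untreated library 2.

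As background, Hsp70 proteins bind unfolded stretches of other proteins and release them in cycles driven by ATP, J proteins start the cycle, and nucleotide exchange factors end it. Hsp90 takes over late folding steps of kinases and steroid receptors, with the help of cochaperones. Small heat shock proteins hold unfolding proteins without ATP, and in muscle they attend the cytoskeleton. Hsp60 with Hsp10 folds proteins inside mitochondria, and TRiC folds actin and tubulin in the cytosol. The transcription factor Hsf1 switches on many of these genes through heat shock elements, which are repeats of GAA and its reverse complement TTC.

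Heat shock element letters stood in the RefSeq promoters (build GRCm38.p6, 250 bases before to 50 bases after the start) of many of these genes. A match of 2 units was GAANNTTC or TTCNNGAA, and a match of 3 units was GAANNTTC followed by NN and another GAA, or TTCNNGAA followed by NN and another TTC. Each pattern reads as itself or as its partner on the other strand, so both strands are covered, and every match of 3 units holds matches of 2. Of the 25 genes found in the promoter table, 4 held a match of 3 units in at least 1 promoter (16%) and 15 a match of 2 (60%), against 0.662% and 17% of all 27025 genes of that table. Over single promoters the shares in the table were 0.603% and 15.1% of 32851. The 4 genes with 3 units were Hsph1, Chordc1, Hspd1 and Hspe1, none of the 7 TRiC genes found had 3 units, and 3 of them had 2. Hspd1 and Hspe1 share the same block, which is counted for both. Hsp90aa1, Hsp90ab1, Hspa8, Cryab, Hsf1, Hspa9 and Cct4 were not found in the promoter table, so several of the most abundant members were not examined. A match is a description of the letters and not a shown binding site.

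The sequences that follow are shown because they carry these letters beside genes whose values are compared below, with the matches in capitals. Hspd1 and Hspe1 lie head to head with 215 bases between their starts, so a block of 18 bases is the same for both and is read from opposite strands, starting 144 bases before the start of Hspd1 and 89 before that of Hspe1. The whole interval is given on the strand of Hspe1 (chr1:55087933-55088147, plus strand). Hspa1a (chr17:34972233-34972280, minus strand) and Hspa1b (chr17:34959315-34959362, minus strand) have the same 48 bases around their match, and 296 of 300 promoter bases agree. The stretch of Hspb1 (chr5:135887782-135887849, plus strand) has separate matches, and that of Chordc1 (chr9:18292260-18292288, plus strand) runs across the start.
Hspd1-Hspe1 interval: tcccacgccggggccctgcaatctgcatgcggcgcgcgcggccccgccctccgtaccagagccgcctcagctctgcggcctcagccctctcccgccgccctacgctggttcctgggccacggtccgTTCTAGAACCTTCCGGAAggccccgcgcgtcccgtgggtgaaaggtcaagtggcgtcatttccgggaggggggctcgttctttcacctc
Hspa1a and Hspa1b: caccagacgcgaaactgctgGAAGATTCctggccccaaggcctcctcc
Hspb1: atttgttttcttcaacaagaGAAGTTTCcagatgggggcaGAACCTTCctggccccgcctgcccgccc
Chordc1: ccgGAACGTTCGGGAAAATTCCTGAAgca

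A few genes held most of the chaperone signal. Cryab, Hspa8, Hsp90ab1, Hspb1 and Hsp90aa1 together gave 60.1% to 62.2% of the summed FPKM of the 32 genes in the untreated libraries and 63.8% to 69.1% after ET-1. In untreated cells Hspa8, the constitutive Hsp70, ranked 22 and Cryab ranked 34 among all genes by mean FPKM, and Hsp90ab1 ranked 90. At the other end Hspa1a, an inducible Hsp70, stood at 7.29 ± 2.61 FPKM (SD, n = 3). The 8 TRiC subunits lay close together, between 122.9 and 216.4 FPKM in the untreated libraries.

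**Figure D1:**
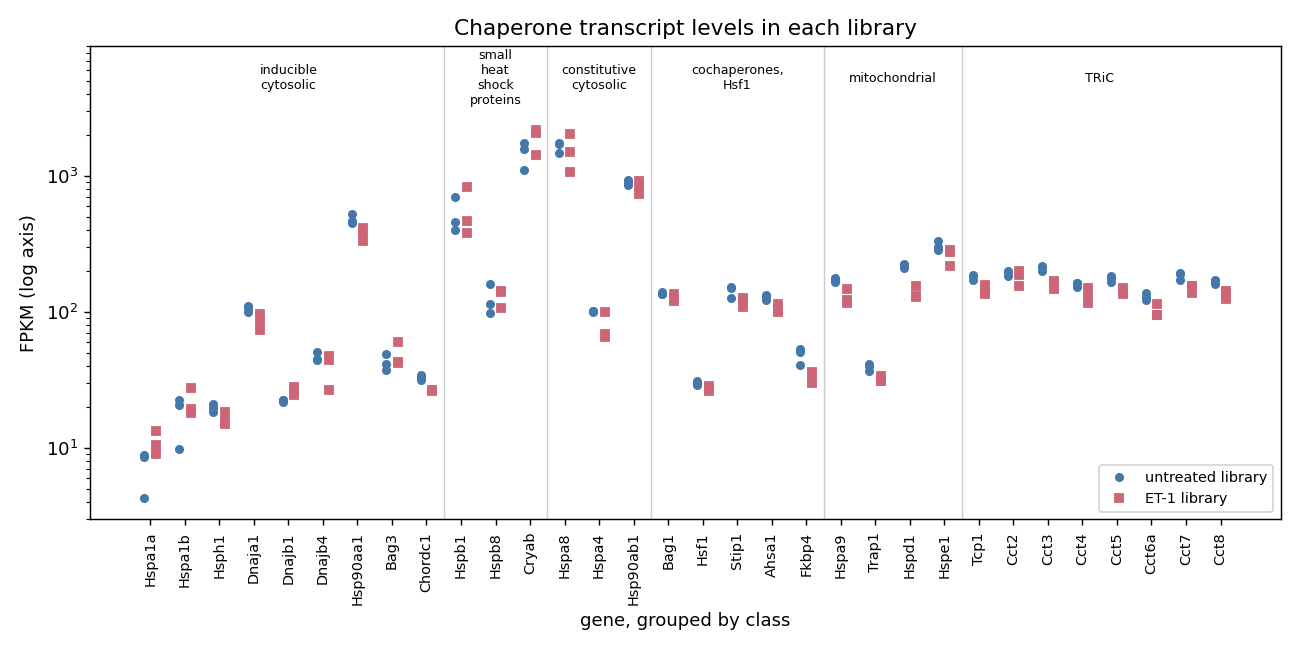
FPKM of the 32 genes on a log axis, grouped by class, with circles for the 3 untreated and squares for the 3 ET-1 libraries. Cryab and Hspa8 are the highest and Hspa1a the lowest gene in every library, and the 8 TRiC genes form a narrow band.

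After ET-1 most of these transcripts were lower by a small amount, and 1 of 32 was called. Hspd1, the mitochondrial Hsp60, fell, and none of the 32 rose, where 1.89% of all tested genes fell and 1.57% rose (3.46% in either direction). The median log2 change was -0.28 over the 32 genes and -0.03 over all tested genes, and 25 of the 32 were below 0 (78.1%, against 54.3% of all tested genes). In 20 of the 32 every ET-1 library lay below every untreated library (62.5%, against 17.6% of all tested genes), and in 2 every ET-1 library lay above (6.25%, against 13.2%). The unadjusted limma p was under 0.05 in 18 of the 32 (17 lower), against 24.1% of all tested genes. With library medians set equal the count was 11 of the 32, and with quantile normalization it was 16. Over all tested genes the counts were 2749 and 2764, against 2806 without rescaling, so the count among the 32 depends in part on scaling. The call of Hspd1 was lost in most fits with a library left out: no member was called in limma without untreated library 1, 2 or 3 or ET-1 library 1 or 2. These fits had 6, 14, 6, 16 and 11 members at an unadjusted p under 0.05. The counts over all tested genes were 1930, 2682, 1653, 2279 and 2454 unadjusted, and 79, 297, 0, 75 and 105 called. Without ET-1 library 3, 4 members were called, and the calls among all tested genes also rose, from 404 to 797. With the replicate number as a block, 2 members were called, both lower (5.19% of all tested genes were called lower in that fit, and 9.45% in either direction). In bulk samples, fewer cells of a type and less RNA per cell cannot be told apart. In the authors' deposited table all 32 had a q-value under 0.05, as did 66.1% of its 16812 genes with one.

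**Figure D2:**
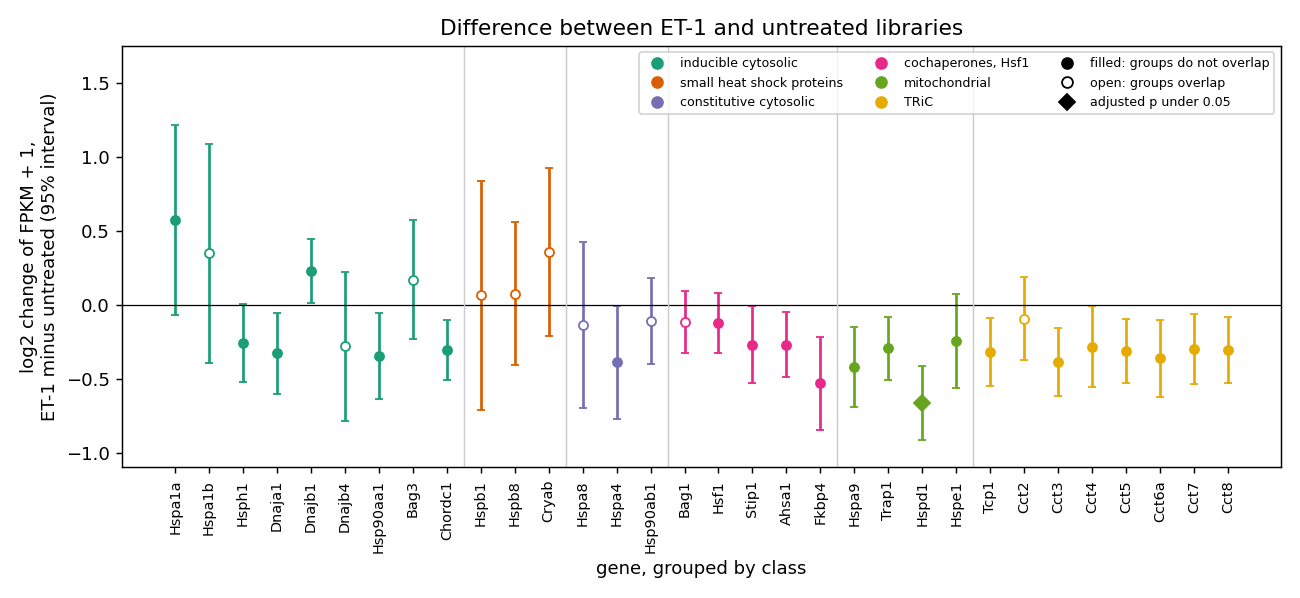
Limma log2 change of FPKM + 1 (ET-1 minus untreated) for the 32 genes with its 95% interval, n = 3 per group. Filled symbols mark genes whose groups do not overlap, and the diamond marks Hspd1, the gene with an adjusted p under 0.05. Most symbols lie below 0, and those above 0 are Hspa1a, Hspa1b, Dnajb1, Bag3 and the small heat shock proteins.

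By class, the median log2 change was -0.36 for the mitochondrial chaperones, -0.31 for TRiC, -0.27 for the cochaperones with Hsf1, -0.26 for the inducible cytosolic genes, -0.14 for the constitutive ones and 0.07 for the small heat shock proteins. All ET-1 libraries lay below all untreated ones in 4 of 4 mitochondrial genes, 7 of 8 TRiC genes, 4 of 5 cochaperones with Hsf1, 4 of 9 inducible genes and 1 of 3 constitutive genes, and in none of the 3 small heat shock proteins. Of all tested genes, 17.6% were separated in that direction. As a share of the summed FPKM of the 32 genes, the small heat shock proteins took 25.3% to 26.6% in the untreated and 31.1% to 35.8% in the ET-1 libraries, and TRiC took 17.1% to 17.3% and 13.6% to 16.4%. These shares add up to a fixed total, so a higher share of one class lowers the others. The inducible median moved to -0.03 without ET-1 library 1, and the small heat shock median lay between -0.08 and 0.27 when single libraries were left out.

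The mitochondrial chaperones were lower in every ET-1 library. Hspd1 (chromosome 1, 55077834 to 55087932, mm10) had 225.1, 210.4 and 220.6 FPKM in untreated libraries 1, 2 and 3, and 128.2, 131.2 and 154.6 FPKM in ET-1 libraries 1, 2 and 3. Values of other genes are given in the same order. The groups were far apart, with the lowest untreated value well above the highest value after ET-1. The mean went from 218.7 ± 7.5 to 138.0 ± 14.4 FPKM (SD, n = 3 each), a ratio of 0.631 and a log2 change of -0.67 ± 0.10 (SE, limma adjusted p = 0.0308). The adjusted p in limma was 0.116, 0.0506 and 0.178 without untreated library 1, 2 and 3, and 0.0817, 0.0718 and 0.0287 without ET-1 library 1, 2 and 3, with log2 changes between -0.75 and -0.62.

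Hspe1, the Hsp10 lid of the same folding chamber (chromosome 1, 55088148 to 55091317), was at 287.2, 334.6 and 302.4 FPKM in the untreated and 286.3, 276.6 and 219.3 FPKM in the ET-1 libraries. The groups did not overlap, although untreated library 1 and ET-1 library 1 were less than 1 FPKM apart. The log2 change of Hspe1 was -0.25, with a 95% interval from -0.56 to 0.07 (limma adjusted p = 0.308), and it was -0.13 without ET-1 library 3. The ratio of Hspd1 to Hspe1, the pair with the shared block printed above, was 0.784, 0.629 and 0.730 in the untreated and 0.448, 0.474 and 0.705 in the ET-1 libraries. The groups overlapped, with ET-1 library 3 having the lowest Hspe1 and the highest Hspd1 of its group (two-sided exact permutation p = 0.2 over 20 groupings, where the smallest possible p is 0.1). Of 8 quantities compared in this way, the smallest Benjamini-Hochberg adjusted exact p was 0.267. Among them were the sum of Hspa1a and Hspa1b and a ratio of Cryab to Hspb2, which is not a member.

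Hspa9, the mitochondrial Hsp70 that pulls proteins through the inner membrane, was at 172.0, 176.7 and 167.1 FPKM without and 121.9, 116.8 and 147.8 FPKM with ET-1. All values after ET-1 were lower, and ET-1 library 3 lay nearest to the untreated ones. Its log2 change was -0.42 ± 0.11 (SE, limma adjusted p = 0.0884, and 0.0376 without ET-1 library 3). Trap1, the mitochondrial Hsp90, was at 39.5 ± 2.2 and 32.0 ± 1.5 FPKM (SD, n = 3 each), with a log2 change of -0.29 (limma adjusted p = 0.113). A family of 14 tested chaperones, partners and proteases found inside mitochondria was put together after the values were seen. Of these, 12 had log2 changes below 0 and 2 above, and the median was -0.20. These counts include Hspd1, Hspe1, Hspa9 and Trap1 themselves, and some of the others were close to 0 (Clpb -0.01, Lonp1 -0.04).

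**Figure D3:**
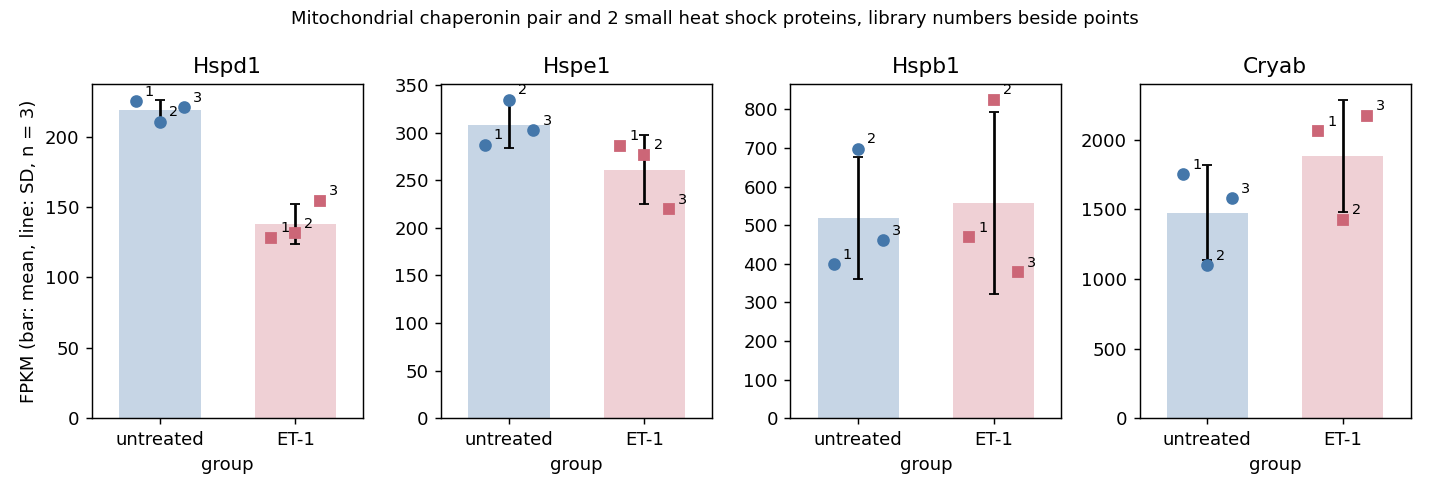
FPKM of Hspd1, Hspe1, Hspb1 and Cryab by group, with bars for the mean, lines for the SD (n = 3) and library numbers beside the points. Hspd1 is separated between the groups, whereas Hspb1 is highest and Cryab lowest in the library numbered 2 of each group.

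TRiC is a double ring of 8 different subunits, each from a gene of its own. In 7 of the 8 genes every ET-1 library was lower than every untreated one, beside 17.6% of all tested genes. Ratios of mean FPKM in these 7 ran from 0.765 for Cct3 to 0.824 for Cct4, and no subunit was called. Cct3, the subunit with the largest difference, was at 216.4, 199.9 and 214.6 FPKM in the untreated and 167.2, 147.6 and 167.9 FPKM in the ET-1 libraries. Its groups were well apart, with a log2 change of -0.39 ± 0.10 (SE, limma adjusted p = 0.0792). Cct6a, the lowest subunit of all in each of the 6 libraries, was at 138.2, 122.9 and 128.2 FPKM without and 94.3, 94.6 and 114.1 FPKM with ET-1 (limma adjusted p = 0.113, and 0.0474 without ET-1 library 3). Tcp1, the subunit that gives the complex its older name, was at 188.5, 173.2 and 184.3 FPKM and at 146.2, 134.6 and 156.6 FPKM, again without overlap. Cct5, Cct7 and Cct8 had log2 changes between -0.31 and -0.30, and Cct4 had -0.28.

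Cct2 was the exception among the subunits. It was at 196.3, 183.4 and 199.9 FPKM in the untreated and 187.3, 156.3 and 201.5 FPKM in the ET-1 libraries, so the groups overlapped and ET-1 library 3 was the highest of all. The log2 change of Cct2 was -0.09, with a 95% interval from -0.38 to 0.19. Cct3 was the highest subunit in each untreated library and Cct2 in each ET-1 library. The ratio of Cct2 to Tcp1 was 1.04, 1.06 and 1.08 in the untreated and 1.28, 1.16 and 1.29 in the ET-1 libraries. All ET-1 values were higher, and the two-sided exact permutation p of 0.1 is the smallest that 3 against 3 libraries can give. Cct2 and Tcp1 were set side by side after their values were seen, so this ratio is a description.

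**Figure D4:**
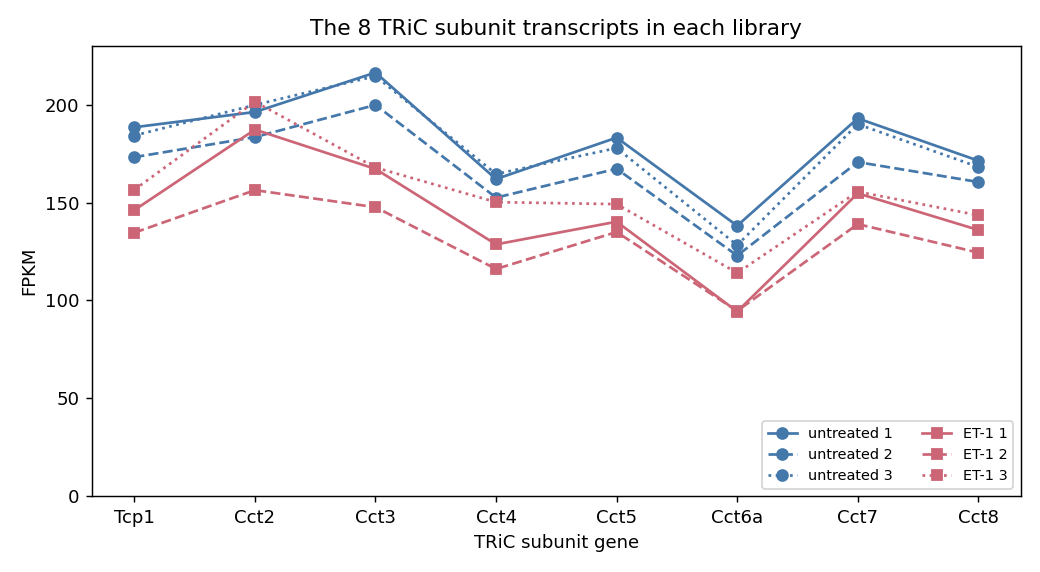
FPKM of the 8 TRiC subunit genes in each library, circles for untreated and squares for ET-1, with the line style giving the library number. The ET-1 lines run below the untreated lines in 7 genes and meet them at Cct2.

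Library differences recurred from subunit to subunit. ET-1 library 2 was lowest of all 6 libraries in 7 of the 8 genes, and untreated library 1 was highest in 6. The highest subunit was 1.57 to 1.67 times the lowest in the untreated and 1.65 to 1.99 times in the ET-1 libraries. Prefoldin hands actin and tubulin to TRiC, and of its 6 subunit genes, from the list of other chaperones, 4 were lower and 2 higher (median log2 change -0.15). All ET-1 libraries lay below all untreated ones in 1 of the 6, beside 17.6% of all tested genes. The 5 tubulin folding cofactors Tbca to Tbce, which take tubulin on from TRiC, all had log2 changes above 0, from 0.01 to 0.23, and overlapping groups.

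Among the inducible Hsp70 genes and their partners the differences had both signs, and none was called. Hspa1a (chromosome 17, 34969359 to 34972156) was at 8.95, 4.28 and 8.64 FPKM in the untreated and 13.5, 10.5 and 9.02 FPKM in the ET-1 libraries. The groups were separated by less than 0.1 FPKM, and untreated library 2 was far below the rest. Hspa1b, its neighbour with a near-identical coding sequence, was at 22.4, 9.84 and 20.7 FPKM without and 27.8, 18.2 and 19.5 FPKM with ET-1, with overlapping groups and again the lowest value in untreated library 2. Neither was called (log2 change 0.57, 95% interval -0.07 to 1.21, and 0.35, -0.40 to 1.09), and without untreated library 2 the change was 0.27 for Hspa1a and -0.01 for Hspa1b. Of all stretches of 100 bases, 48.6% of the Hspa1a transcript occur in Hspa1b and 49.9% of the reverse, so fragments could have been divided between them and each value is uncertain. Their sum was 31.4, 14.1 and 29.3 FPKM in the untreated and 41.2, 28.6 and 28.6 FPKM in the ET-1 libraries, and the groups overlapped. The ratio of Hspa1b to Hspa1a was 2.50, 2.30 and 2.40 and, after ET-1, 2.06, 1.74 and 2.17, lower in every ET-1 library (two-sided exact permutation p = 0.1, the smallest possible).

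Dnajb1, the J protein most often paired with inducible Hsp70, was at 22.6, 21.7 and 22.5 FPKM in the untreated and 26.2, 28.0 and 24.6 FPKM in the ET-1 libraries. Every ET-1 value was higher (log2 change 0.23 ± 0.09, SE, limma adjusted p = 0.187). Dnaja1, a J protein of the other main class, was at 107.7, 99.6 and 109.8 FPKM without and 96.0, 74.3 and 82.7 FPKM with ET-1, each ET-1 value being lower (log2 change -0.33, limma adjusted p = 0.149). Dnajb4, a relative of Dnajb1, was at 44.7, 51.0 and 45.0 FPKM and at 26.8, 44.4 and 47.2 FPKM, where ET-1 library 1 alone was low. The log2 change of Dnajb4 was -0.28, and -0.03 without that library. Of 11 tested J proteins of these classes, counted without the germ cell chaperones, 5 had log2 changes above 0 and 6 below, and the median was -0.05. Dnajb3, a tested J protein left out of these counts as a germ cell chaperone, was at 1.61, 2.15 and 1.72 FPKM without ET-1. With ET-1 it was at 2.36, 3.46 and 3.74 FPKM, each value being higher (log2 change 0.56, limma adjusted p = 0.109).

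Bag3, which links Hsp70 to small heat shock proteins, was at 42.8 ± 5.9 and 48.7 ± 10.4 FPKM (SD, n = 3 each), with the highest value, 60.6 FPKM, in ET-1 library 3. Its log2 change was 0.17, and less than 0.01 without that library. Bag1, the related exchange factor, was at 137.4 ± 2.1 and 127.1 ± 8.1 FPKM. Hsph1 and Hspa4, large relatives of Hsp70 that act as its exchange factors, were at 19.8 ± 1.2 and 16.4 ± 1.8 FPKM and at 100.9 ± 1.3 and 78.1 ± 18.5 FPKM (SD, n = 3 each). Both were lower in every ET-1 library. For Hspa4, ET-1 library 3 (99.40 FPKM) lay just below untreated library 2 (99.41 FPKM), whereas ET-1 libraries 1 and 2 stood at 69.5 and 65.5 FPKM. Hspa4 was called without ET-1 library 3 (log2 change -0.57, limma adjusted p = 0.0340, against -0.39 and 0.201 with it).

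Hspa8 spread more within the ET-1 group than between the groups. It was at 1736, 1465 and 1700 FPKM in the untreated and 2028, 1490 and 1073 FPKM in the ET-1 libraries, which thus held both the highest and the lowest value. The log2 change was -0.14, with a 95% interval from -0.70 to 0.42, and it was 0.09 without ET-1 library 3. Inducible Hsp70, as the sum of Hspa1a and Hspa1b, stood to Hspa8 as 0.0181, 0.00964 and 0.0173 to 1 in the untreated libraries and as 0.0203, 0.0192 and 0.0266 to 1 after ET-1, each ET-1 value being higher (two-sided exact permutation p = 0.1, the smallest possible).

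Neither gene of the cytosolic Hsp90 pair was called. Hsp90aa1, the inducible form, was at 447.4, 527.9 and 465.5 FPKM in the untreated and 387.2, 411.5 and 335.0 FPKM in the ET-1 libraries, all lower (log2 change -0.35 ± 0.12, SE, limma adjusted p = 0.151). Hsp90ab1, the constitutive form, was at 927.5, 855.3 and 896.3 FPKM and at 912.5, 735.7 and 846.2 FPKM, with overlapping groups (log2 change -0.11, 95% interval -0.40 to 0.18, and -0.02 without ET-1 library 2). The ratio of Hsp90aa1 to Hsp90ab1 was 0.540 ± 0.070 and 0.460 ± 0.087 (SD, n = 3 each), and the groups overlapped (two-sided exact permutation p = 0.3).

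Among the Hsp90 cochaperones of the 32 genes, every one had a log2 change below 0. Fkbp4, a prolyl isomerase that rides on Hsp90 in steroid receptor complexes, was at 53.5, 40.9 and 51.2 FPKM in the untreated and 36.5, 29.9 and 33.1 FPKM in the ET-1 libraries. Every ET-1 value was lower, and the library numbered 2 was lowest in each group. The log2 change was -0.53 ± 0.13 (SE), with a limma adjusted p of 0.0789, and of 0.0292 with the replicate block, under which Fkbp4 was called. Fkbp5, its close relative from the list of other chaperones, fell from 67.7, 84.6 and 65.9 FPKM to 47.9, 47.8 and 49.2 FPKM. The log2 change of Fkbp5 was -0.57 ± 0.12 (SE, limma adjusted p = 0.0497). The adjusted p in limma was between 0.0588 and 0.178 when any of the 6 libraries was left out, and was 0.0545 at a pseudocount of 5, 0.0589 with equal medians, 0.0724 with quantile normalization and 0.0732 without a filter.

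Ppid, the cyclophilin of the same complexes, chosen after its values were seen, was at 52.9, 42.1 and 51.1 FPKM without and 27.8, 27.1 and 35.1 FPKM with ET-1 (log2 change -0.68 ± 0.14, SE, adjusted p in limma 0.0515 and, blocked by replicate number, 0.0235). Stip1, which bridges Hsp70 and Hsp90, was at 151.5, 127.4 and 150.1 FPKM and at 126.0, 109.6 and 119.1 FPKM, a separation of less than 2 FPKM between the groups (limma adjusted p = 0.191). Ahsa1, which speeds the ATP cycle of Hsp90, was at 128.2 ± 4.9 and 106.1 ± 7.7 FPKM (SD, n = 3 each), with all ET-1 values lower (limma adjusted p = 0.141). Chordc1, an Hsp90 partner whose start holds the heat shock element letters printed above, was at 34.7, 31.4 and 33.0 FPKM and at 26.9, 26.1 and 26.6 FPKM. Its groups were well separated, with a log2 change of -0.31 ± 0.09 (SE, limma adjusted p = 0.0951). Over 11 Hsp90 cochaperones with tetratricopeptide repeats, a family put together after the values were seen, 8 had log2 changes below 0 and 3 above, and the median was -0.17. These counts include Fkbp4, Fkbp5, Ppid and Stip1.

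**Figure D5:**
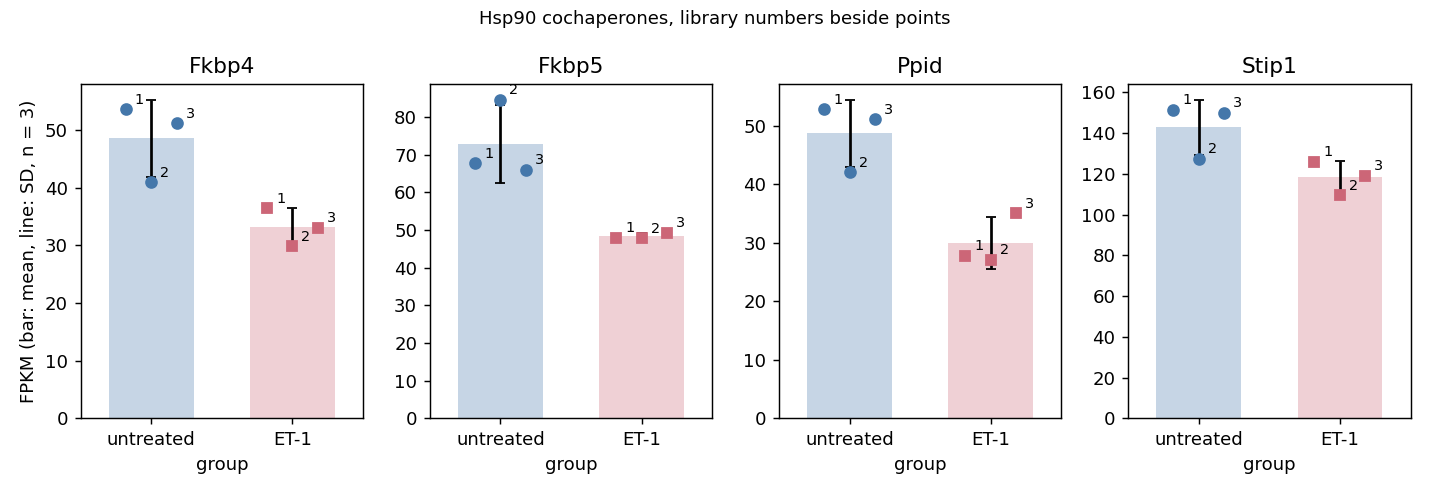
FPKM of the Hsp90 cochaperones Fkbp4, Fkbp5, Ppid and Stip1 by group, with bars for the mean, lines for the SD (n = 3) and library numbers beside the points. Every ET-1 value lies below every untreated value of the same gene, and Fkbp5 has nearly the same level in the 3 ET-1 libraries.

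The small heat shock proteins had overlapping groups, and for Hspb1 and Cryab the library numbered 2 lay at one end of each group. Hspb1 (Hsp25), which binds actin filaments, was at 398.8, 697.7 and 461.5 FPKM in the untreated and 469.0, 825.1 and 378.1 FPKM in the ET-1 libraries. The library numbered 2 was the highest of each group, and the groups overlapped (log2 change 0.06, 95% interval -0.71 to 0.84). Cryab, the partner of desmin filaments in muscle, was at 1755, 1100 and 1579 FPKM and at 2061, 1428 and 2174 FPKM, with number 2 the lowest of each group (log2 change 0.36, 95% interval -0.21 to 0.92, and 0.16 without untreated library 2). The ratio of Cryab to Hspb1 was 1.58 and 1.73 in the libraries numbered 2, and 3.42 to 5.75 in the other 4. Hspb8, the partner of Bag3, was at 98.2, 160.5 and 115.1 FPKM without and 106.1, 141.0 and 141.4 FPKM with ET-1, and its groups overlapped.

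Hspb2 and Hspb6 are small heat shock proteins of muscle from the list of other chaperones, chosen after their values were seen. Hspb2 was at 19.1 ± 3.8 and 29.6 ± 3.6 FPKM (SD, n = 3 each, adjusted p in limma 0.0899 and, blocked by replicate number, 0.0249), and Hspb6 at 22.0 ± 6.2 and 32.2 ± 6.6 FPKM (limma adjusted p = 0.215). Every ET-1 library was higher in both. The ratio of Cryab to Hspb2 was 77.1 ± 3.0 and 63.6 ± 9.8 (SD, n = 3 each), with overlapping groups (two-sided exact permutation p = 0.2). Hspb2 and Cryab overlap by 1030 bases on opposite strands in the deposited coordinates, and strand use in counting was not given in the sources used here, so reads of the pair cannot be told apart there. The same holds for Tcp1 with Acat3 (1109 bases), Cct8 with Usp16 (191 bases) and Trap1 with Dnase1 (48 bases). Shared stretches of 100 bases also occurred in members without such an overlap. They made up 9.22% of Dnaja1 (mostly with Smu1), 4.95% of Cct7 (Pradc1) and 1.93% of Hspe1 (Hspd1), whose values can carry a similar uncertainty.

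Hsf1, the transcription factor of the heat shock response, was at 30.9, 29.0 and 30.3 FPKM in the untreated and 27.7, 28.5 and 26.3 FPKM in the ET-1 libraries. Every ET-1 value was lower, by less than 1 FPKM at the nearest pair (log2 change -0.12, 95% interval -0.33 to 0.08). The 4 genes with 3 heat shock units in a promoter, Hsph1, Chordc1, Hspd1 and Hspe1, had log2 changes of -0.26, -0.31, -0.67 and -0.25. The 11 genes with a match of 2 units and none of 3 had a median of -0.09 and a range from -0.53 to 0.57, with 6 below 0, and the 10 genes with no match had a median of -0.30, with 9 below 0. The difference between these sets was not tested.

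Of 69 tested genes of the other chaperone list, 1 was called lower (Fkbp5) and none higher, where 1.89% and 1.57% of all tested genes were. With the replicate block 5 were called lower and 1 higher, beside 5.19% and 4.26% of all tested genes, so neither count stands out from the background. Their median log2 change was -0.04, with 37 below and 32 above 0, near that of all genes. Beside Fkbp5 and Ppid, the genes called lower with the block were Cacybp, Tomm70a and Hspb7, and Hspb2 was called higher. Hspb7, a small heat shock protein of muscle, was at 176.9, 72.4 and 154.0 FPKM without and 87.5, 59.1 and 94.9 FPKM with ET-1, where untreated library 2 was low and the groups overlapped. Cacybp, which binds the ubiquitin ligase Siah1, was at 46.0 ± 3.2 and 33.0 ± 5.1 FPKM (limma adjusted p = 0.0893), and Tomm70a, a mitochondrial import receptor that docks Hsp70 and Hsp90, at 30.4 ± 1.1 and 20.9 ± 3.3 FPKM (limma adjusted p = 0.0705, SD, n = 3 each). Further partners of Hsp90 and Hsp70 were also picked after their values were seen. Cdc37, which brings kinases to Hsp90, was at 92.2 ± 4.3 and 95.8 ± 5.0 FPKM, St13 at 97.6 ± 7.3 and 91.9 ± 5.2 FPKM, and the p23 protein Ptges3 at 115.1 ± 1.6 and 100.3 ± 14.1 FPKM (SD, n = 3 each). These 3 were not called, and their groups overlapped.

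Of 11 chaperone genes known from male germ cells, 4 passed the filter on low values. Hspa2, a germ cell Hsp70 that other tissues also express, rose from 5.04, 5.10 and 5.13 FPKM to 7.94, 9.60 and 9.27 FPKM (log2 change 0.70 ± 0.11, SE, limma adjusted p = 0.0308). Without untreated library 1, 2 or 3 the adjusted p was 0.112, 0.0543 and 0.178, without ET-1 library 1, 2 or 3 it was 0.0523, 0.0725 and 0.0406, and without a filter it was 0.0563. Hspa4l, a relative of Hspa4 abundant in testis and picked after its values were seen, was at 9.51 ± 0.40 and 7.46 ± 0.67 FPKM (SD, n = 3 each), lower in every ET-1 library. The 8 germ cell markers summed to 5.57 to 8.62 FPKM in the untreated and 4.69 to 11.3 FPKM in the ET-1 libraries. Most of this was Prm1, at 2.02 to 4.49 and 2.22 to 5.40 FPKM, and Tnp1, at 0.93 to 2.01 and 1.09 to 2.50 FPKM, both with overlapping groups, and Ddx4 was at most 0.54 FPKM. The part of germ cell RNA in the value of Hspa2 was not tested.

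Some markers of other testicular cells were called, and members of a list often differed in sign. Of 6 tested endothelial markers, Egfl7, Emcn, Pecam1 and Esam fell, whereas Cdh5 had a log2 change of 0.25 and overlapping groups, and the 7 with values summed to 59.7 to 92.8 FPKM in the untreated and 26.6 to 47.2 FPKM in the ET-1 libraries. Of 9 macrophage markers, Lyz2 rose, 8 had log2 changes above 0 and Cd14 one below, and they summed to 119.8 to 187.7 and 296.1 to 697.5 FPKM. The 9 Sertoli markers summed to 1073 to 2598 and 3068 to 6612 FPKM, most of it from Clu alone, which was at 839.7 to 1879 and 2579 to 5624 FPKM and was not called. Aard rose, whereas Sox9, Wt1, Gata4, Dhh, Cldn11 and Cst9 had overlapping groups. Clu, Sox9, Wt1, Dhh, Cldn11 and Cst9 were highest in the library numbered 2 of each group, and Gata4, Aard and Amh were not so in both. Cldn11 was at 105.1, 481.1 and 180.0 FPKM in the untreated and 206.1, 573.3 and 244.4 FPKM in the ET-1 libraries. The 6 Leydig markers summed to 2335 to 4960 and 828 to 2422 FPKM, most of it from Insl3 (2040 to 4532 and 614.0 to 2096 FPKM), and none was called. Star, with the smallest p of these, went the other way, from 62.0 to 79.7 FPKM without to 103.7 to 155.1 FPKM with ET-1. With the replicate block, 3 Leydig markers (Insl3 and Cyp11a1 lower, Star higher), 3 Sertoli markers (Clu, Dhh and Aard, all higher), 6 macrophage markers (5 higher, 1 lower) and 5 endothelial markers (all lower) were called in limma. Tagln had the smallest p of the myoid markers and Tnp1 of the germ cell markers, and neither was called. None of the lists had a marker at 0 in all libraries. The part of these markers in the chaperone values was not tested.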

How the data were processed

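RNA of 3 untreated and 3 ET-1 libraries was compared, with groups and replicate numbers from the sample titles. Libraries followed BGI protocols, per the labels. The submitters' processing notes name HISAT2 2.0.4, Bowtie2 2.2.5, RSEM 1.2.12 and build mm10, with no role for each. The authors deposited FPKM values per library for 19285 of 22135 rows, and their own log2 fold change, p-value and q-value (named for DEGseq, per the file headers), whose use of replicates is not given. Steps between low FPKM values put depth near 17600000 to 18340000 fragments per library, with 82.3% to 87.6% of the values within 0.15 of whole fragments. No count test was run, as RSEM values need not be whole.

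Genes reaching 1 FPKM in 3 or more libraries entered a two-sided limma fit (version 3.58.1, R 4.3.3, trended prior, 1 term for group) of log2(FPKM + 1), which was tested on simulated data. Fold changes of low genes are understated on that scale. The members, classes and lists were chosen with earlier results of these data known. All 32 members are named. Of each other list the called genes (up to 4 per direction) or the gene with the smallest p were to be named. Further genes and all gene families fall outside this rule, and only some are marked as chosen after their values were seen. The list of erythroid markers had 1 gene with values (at most 0.10 FPKM) and was not tested.

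Deviations from the group means of same-numbered libraries correlated at 0.228, 0.523 and 0.202 across genes for numbers 1, 2 and 3, all above 0.1. A second fit therefore took the number as a block. Its meaning is not in the labels, and untreated 1 with ET-1 3 (0.249) and untreated 3 with ET-1 1 (0.271) correlated as well. Alternatives were other pseudocounts, no filter, other scalings, untreated libraries 1 and 3 averaged, and each library left out. Ratios between genes, and the sum of Hspa1a and Hspa1b, were compared with exact permutation tests, adjusted over all 8. Promoters come from RefSeq (GRCm38.p6), and shared stretches from GENCODE M21 transcripts. Cct6a was not examined for shared stretches.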

Additional observations from a re-analysis of the deposited data

How the results depend on the processing

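The number of genes called in limma was 404, and it was 193 without a filter, 1102 with the replicate block and 0 with untreated libraries 1 and 3 averaged (1766 at an unadjusted p under 0.05), and 0 to 797 when single libraries were left out (0 without untreated library 3, with 1653 at an unadjusted p under 0.05). For the 32 chaperones the count of 1 became 2 with the replicate block, 0 with untreated 1 and 3 averaged (6 unadjusted), and 0 to 4 without single libraries. For the other chaperone and germ cell chaperone lists the count of 2 became 1 at a pseudocount of 5, 1 with quantile normalization, 1 with equal medians, 0 without a filter (17 unadjusted), 7 with the replicate block, 0 with untreated 1 and 3 averaged (11 unadjusted), and 0 to 4 without single libraries (10 to 25 unadjusted). Beside Fkbp4, the replicate block changed no call among the 32. The median log2 change of the inducible class was -0.198 with quantile normalization and -0.300 to -0.032 without single libraries. That of the constitutive class was -0.268 and -0.319 to -0.092. Both stayed below 0, as did the medians of the mitochondrial, TRiC and cochaperone classes under all 13 alternatives. Of the 32 genes, 23 were lower and 4 higher under every alternative. The alternatives reuse the same libraries, and some, such as the replicate block, leave the log2 change as it was. The matching share of all tested genes was not counted, so these counts are a description. The sign turned for Hspb1 with quantile normalization (-0.004), with untreated 1 and 3 averaged (-0.054) and without untreated 1 (-0.106), untreated 3 (-0.001) or ET-1 2 (-0.260), over a range of -0.260 to 0.302 without single libraries. It turned for Hspb8 with untreated 1 and 3 averaged (-0.025) and without untreated 1 (-0.082 to 0.270 over libraries left out), for Hspa1b without untreated 2 (-0.005 to 0.550), for Hspa8 without ET-1 3 (-0.365 to 0.093) and for Cct2 without ET-1 2 (-0.173 to 0.009). None of these genes was called, and the cause was not tested. With 3 libraries a group, a gene whose interval spans 0 may still differ, and Hspa1a near 7 FPKM rests on fewer fragments than the abundant chaperones.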
